A study of Mus musculus with 8 samples.

Results

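The genes described here encode lysosomal hydrolases, lysosomal membrane proteins and 2 transcription factors that control such genes. They were chosen by gene symbol from a list of 36 names drawn up by known function. No measured value enters that rule, although earlier results of these data were known when the list was made. All 36 were among the 15035 genes of the deposited expression table. By role, 9 encode cathepsins and other proteases, 8 glycosidases, 3 sulfatases, 3 lipid hydrolases or a thioesterase, 4 soluble activators and lipid carriers, 7 membrane proteins and 2 transcription factors. All 36 passed the filter on low values, and their lowest value in any library was 259.2 normalized counts, for Cln3.

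Poly(A) RNA was sequenced from the auditory nerve of 21-day-old mice, cut out of the cochlea. It compared 4 wild-type mice (replicates 1 to 4) with 4 mice labelled heterozygous for Mef2c, a MADS-box transcription factor gene (replicates 5 to 8), to ask which transcripts differ between the genotypes. Each library joins both nerves (2 cochleas) of a single animal. The allele, the strain, the sex and any driver or target cell type of the deletion were not given in the sources used here.

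Lysosomes are acidic organelles in which proteins, glycans, lipids and nucleic acids are broken down by hydrolases that work at low pH. Most soluble hydrolases are carried there from the Golgi by mannose 6-phosphate receptors, while a proton pump acidifies the lumen and heavily glycosylated proteins such as LAMP1 and LAMP2 line the membrane. TFEB and TFE3 bind a palindromic E-box in the promoters of many of these genes and raise their transcription when nutrient signalling through mTORC1 falls. In myelinated nerve, lysosomal enzymes such as galactosylceramidase (Galc) and arylsulfatase A (Arsa) degrade the galactolipids of myelin, and macrophages are rich in cathepsins.

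Some properties of the libraries bear on every comparison. Levels are normalized counts, which by their values are read counts scaled by 1 factor in each library. The estimated depth was 13362850 to 21507618 reads per library. Mef2c itself was higher in heterozygote-labelled libraries, at 583.3, 704.9, 735.1 and 649.8 normalized counts against 438.6, 498.4, 508.7 and 402.2 in wild type, in the order of the replicate numbers, as are all lists of 4 values below. This goes against the label, although values per gene cannot show reads from a deleted exon, so every direction is between libraries as labelled. Wild-type library 1 and heterozygote-labelled library 5 had 12 and 7.6 normalized counts of Xist and were low in it, and no label gives sex. Neuronal markers summed to 152506 to 212036 normalized counts in wild type and 171502 to 199250 in heterozygote-labelled libraries, and none of the marker genes in the table was at 0. Of 12 oligodendrocyte markers, 9 had an unadjusted limma-trend p under 0.05 and 4 an adjusted p under 0.05, all lower, and their sum was 103829 to 140594 against 50393 to 71337. Of 8 astrocyte markers, 6 were lower, 3 of them at an unadjusted limma-trend p under 0.05 and without overlap (Gfap, Aqp4 and Aldoc, with log2 fold changes of -0.99, -0.73 and -0.42), and their sum was 44153 to 65687 against 36940 to 59814. The 10 markers of myelinating Schwann cells, which include Mbp, summed to 215629 to 253068 against 164023 to 195582. All 5 neutrophil markers in the table were higher, with sums of 134 to 2550 against 718 to 6391, and the other 3 were not analysed here. Of the 2550 in wild-type library 1, Ltf made up 2176.4. S100a8, S100a9 and Ngp had no overlap, with log2 fold changes of 4.09, 3.62 and 3.73 (limma-trend adjusted p 0.0763, 0.092 and 0.092). Ltf and Lcn2 overlapped, each with a log2 fold change of 1.9. In bulk tissue, fewer cells of a type and less RNA per cell cannot be told apart.

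The lysosomal genes spanned a wide range of levels. Expressed as normalized counts per kilobase of transcript in wild type, Psap was the most abundant at 16542 ± 1040 (SD, n = 4). It encodes prosaposin, the precursor of the saposins that present sphingolipids to hydrolases. Next came Ctsd, for the aspartic protease cathepsin D, at 10462 ± 1306, and Lamp1 at 5817 ± 269.3 (SD, n = 4 each). Ctsb (3680 ± 80.7) and Cd63 (3663 ± 1014) followed, and these 2 levels did not differ beyond their spread. At the other end of the order stood Cln3, a membrane protein gene of juvenile Batten disease, at 110.7 ± 18.02 and Sgsh, for the heparan N-sulfatase, at 100.3 ± 9.274. The regulators Tfeb and Tfe3 lay at 314 ± 81.22 and 165.5 ± 15.67. The 36 genes together took 0.852% to 0.927% of all normalized counts in wild type and 0.787% to 0.893% in heterozygote-labelled libraries, so the genotypes overlapped.

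**Figure D1:**
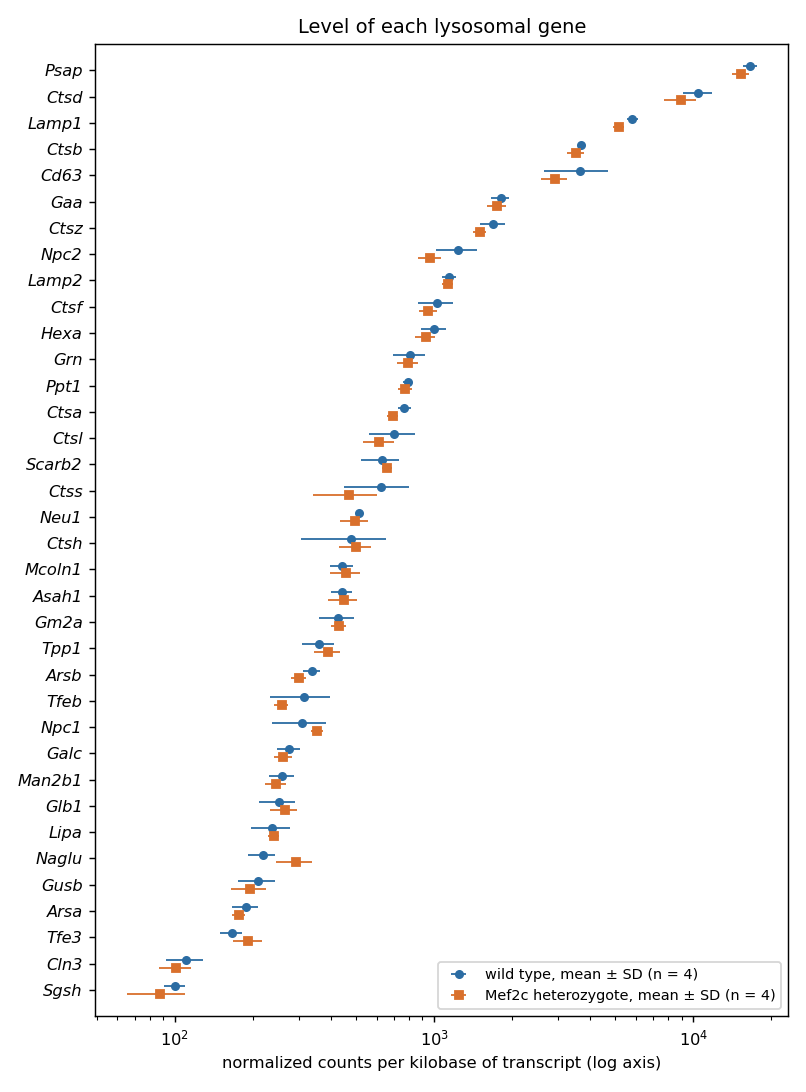
Level of each lysosomal gene as normalized counts per kilobase of its longest coding transcript, on a log axis. Circles are wild type and squares the libraries labelled heterozygote, as mean ± SD of 4 libraries. Levels ran from about 100.3 for Sgsh to 16542 for Psap in wild type.

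None of these genes passed the threshold used for the whole table. Fold changes are those of heterozygote-labelled over wild-type libraries, so a log2 value below 0 means lower in the former. With limma-trend and Benjamini-Hochberg adjustment over all 14870 tested genes, 0 of the 36 had an adjusted p under 0.05, where 0.0807% of all tested genes did, and the smallest adjusted p among them was 0.266. At an unadjusted p under 0.05 there were 2 (5.56%), Naglu higher and Npc2 lower, against 14.1% of all tested genes (6.72% higher and 7.34% lower). In 1 gene, Lamp1, the genotypes did not overlap (2.78% of the 36), against 7.26% of all tested genes (3.4% higher and 3.86% lower). These shares were all at or below the background.

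Differences were small and mostly downward in direction. Of the 36 genes, 25 (69.4%) had a log2 fold change below 0, against 47.7% of all tested genes, with a median of -0.07 against 0.02 and a range from -0.41 to 0.42. In 11 genes all 4 libraries labelled heterozygote lay below the wild-type mean (30.6%, against 23.8% of all tested genes). In 2, Naglu and Npc1, all 4 lay above it, and the share of all tested genes above it is not given here. Without wild-type library 1 the log2 fold change of Npc1 was 0.04. The median standard error was 0.12 for these genes and 0.17 for all. For 30 of the 36 (83.3%) the 95% interval of the log2 fold change, not adjusted for the number of genes, lay inside a change of 1.5-fold in either direction, which held for 51.8% of all tested genes. The other 6 were Ctss, Naglu, Sgsh, Npc2, Cd63 and Tfeb, where a larger difference lies within the interval.

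Naglu was higher at an unadjusted p under 0.05 in all 13 alternatives tried, whereas the number of lower calls changed with single libraries. Among genes lower at an unadjusted p under 0.05 there were 0 when library 1, 2, 4, 5 or 8 was left out. There was 1 without library 7 (Npc2), 2 without library 6 (Sgsh and Npc2), and 5 without wild-type library 3 (Ctsd, Ctss, Ctsz, Npc2 and Cd63). Npc2 was lower in all 13 alternatives, with log2 fold changes from -0.48 to -0.26. Where leaving out 1 library took Npc2 past 0.05, its unadjusted limma-trend p was 0.0509 to 0.077. Without wild-type library 3, Npc2 had a limma-trend adjusted p of 0.0473, the only adjusted p under 0.05 among the 36 in those alternatives. Without the 2 libraries low in Xist, 8 genes changed sign (Ctsl, Gusb, Man2b1, Lipa, Grn, Lamp2, Scarb2 and Mcoln1). Of these Ctsl had the largest difference with all libraries, and it went from -0.18 to 0.01.

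**Figure D2:**
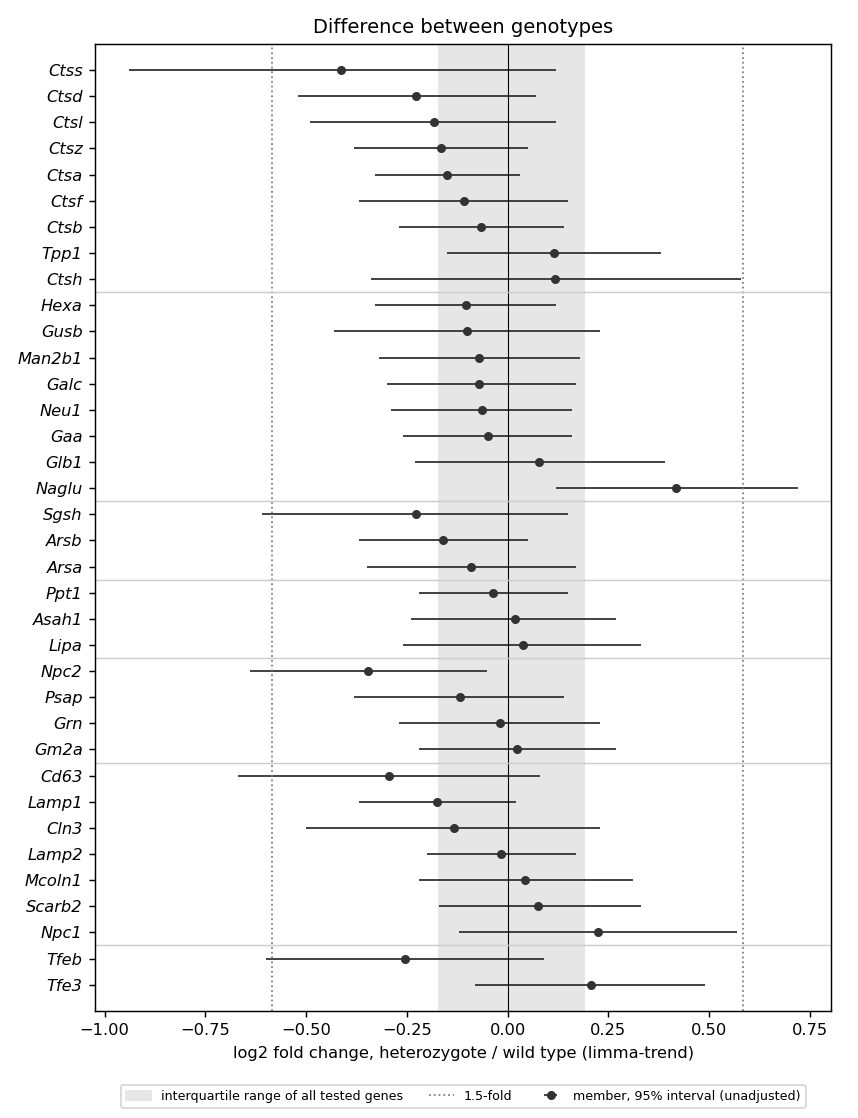
log2 fold change of each lysosomal gene between libraries labelled heterozygote and wild type, from limma-trend, with its unadjusted 95% interval. Rows are grouped by role, dotted lines mark 1.5-fold and the grey band is the interquartile range of all tested genes (-0.17 to 0.19). The intervals of Naglu and Npc2 do not reach 0.

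The members were then searched for the core of the E-box bound by TFEB and TFE3, the 6 letters CACGTG, which read the same on both strands. RefSeq promoter windows (GRCm38.p6) run from 250 bases before to 50 bases after a start site, and 32 of the 36 genes had 1 or more. Ctsb, Ctsh, Asah1 and Npc1 were not matched. Of the 32, 12 (37.5%) held the motif in a window, against 11.4% of the 11723 tested genes that had a window. Per window it was 31.6% of 38, against 7.15% of all 32851 windows. The 12 were Arsa, Cln3, Ctsa, Ctsd, Ctsf, Ctsl, Gaa, Glb1, Lamp1, Mcoln1, Naglu and Sgsh. In 10 of them a T came before or an A after the core. Of these 12 genes 9 had a log2 fold change below 0, with a median of -0.12, and of the 20 without the motif 15 did, with a median of -0.07. Only Naglu among the 12 had an unadjusted p under 0.05, and the values ran from -0.23 to 0.42. A match of letters is a description of the sequence and not a measured binding site.

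Lamp1 holds 4 copies, the most of any member, within the 160 bases before its start (chr8:13159001-13159160, plus strand). That stretch is shown whole because it belongs to the gene whose genotypes did not overlap, with each core in capitals.
Lamp1: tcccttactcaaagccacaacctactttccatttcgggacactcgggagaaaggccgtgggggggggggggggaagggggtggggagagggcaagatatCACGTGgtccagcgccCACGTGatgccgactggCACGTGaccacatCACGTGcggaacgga
For comparison, 30 bases around the copy nearest upstream of the RefSeq start are shown for 6 further members, a glycosidase, 2 proteases, a sulfatase and 2 membrane proteins, each read 5′ to 3′ on the strand of its gene. They lie at chr11:101070009-101070038 (Naglu, plus), chr7:142387908-142387937 (Ctsd, minus), chr2:164833749-164833778 (Ctsa, plus), chr11:119355522-119355551 (Sgsh, minus), chr7:126583340-126583369 (Cln3, minus) and chr8:3500462-3500491 (Mcoln1, plus).
Naglu: caaccttcaggtCACGTGgcccgaggtcgg
Ctsd: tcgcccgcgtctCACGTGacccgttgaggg
Ctsa: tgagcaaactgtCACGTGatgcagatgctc
Sgsh: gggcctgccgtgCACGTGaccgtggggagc
Cln3: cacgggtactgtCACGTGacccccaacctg
Mcoln1: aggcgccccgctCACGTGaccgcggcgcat
Counted from the RefSeq start, the first base of the core lies 73 bases before the start in Naglu, 98 in Ctsd, 12 in Ctsa, 29 in Sgsh, 121 in Cln3 and 45 in Mcoln1. The GENCODE M21 models of Naglu, Ctsd, Ctsa, Cln3 and Mcoln1 begin farther upstream, so there these copies lie inside the gene. That of Sgsh also begins farther upstream, within the core itself. These genes share the core and had log2 fold changes from -0.23 (Ctsd and Sgsh) to 0.42 (Naglu).

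The cathepsins and other proteases degrade proteins delivered by endocytosis and autophagy. Of these 9 genes, 7 had a log2 fold change below 0 and 0 had an unadjusted p under 0.05, with a median of -0.15. Ctsd had 25011.9, 20701.9, 19159.4 and 24136.5 normalized counts in wild type and 21024.8, 21553.4, 17865.6 and 15755.5 in heterozygote-labelled libraries. The groups overlapped, with library 8 the lowest and wild-type libraries 1 and 4 the highest. Its log2 fold change was -0.23 (standard error, SE, 0.13, limma-trend adjusted p 0.448). Ctss, for cathepsin S, a cysteine protease of antigen-presenting cells, had the most negative log2 fold change of all 36, -0.41 (SE 0.24, limma-trend adjusted p 0.443). Its values ran from 553.6 to 1126.5 in wild type and from 386.7 to 795.4 in heterozygote-labelled libraries, the lowest in library 5. Without the 2 libraries low in Xist the log2 fold change of Ctss was -0.04. Ctsb, a broadly expressed cysteine cathepsin, had one of the narrowest intervals, from -0.27 to 0.14. Ctsh and Tpp1, for an aminopeptidase-type cathepsin and the tripeptidyl peptidase of late-infantile Batten disease, had log2 fold changes of 0.12 and 0.11. Without wild-type library 1, which was the highest for Ctsh and the lowest for Tpp1, these were 0.33 and 0.04. Without the 2 libraries low in Xist, Ctsh had 0.39 with an unadjusted limma-trend p of 0.0428. For Ctsa, Ctsf, Ctsl and Ctsz the values lay between -0.18 and -0.11.

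Macrophage content was read beside the cathepsins. The 15 macrophage and microglia markers summed to 7021 to 10430 normalized counts in wild type and 6264 to 7964 in heterozygote-labelled libraries. Of these markers 12 were lower and 3 higher, 2 with an unadjusted limma-trend p under 0.05, and none was at 0. The sums by library were 10430, 7768, 7021 and 7652 in wild type and 6264, 7668, 7964 and 7061 in heterozygote-labelled libraries. Wild-type library 1 thus held the highest value and library 5 the lowest, as they did for Ctss (1126.5 and 386.7). This was not particular to macrophages. Wild-type library 1 also had the highest marker sums of osteoclasts (1185), fibroblasts (50356) and endothelial cells (9615). The same held for oligodendrocytes, astrocytes and Schwann cells, but not for neurons or neutrophils. Library 5 was also the lowest for oligodendrocytes (50393) and astrocytes (36940). The part of macrophages or of other cell types in the cathepsin values was not tested.

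The glycosidases remove sugars from glycoproteins, glycolipids and glycosaminoglycans. Naglu, for alpha-N-acetylglucosaminidase, acts on heparan sulfate, and its deficiency causes Sanfilippo syndrome type B. The gene lies at chr11:101070012-101077672 on the plus strand (GRCm38, GENCODE M21). Its values were 638.5, 587.5, 510.6 and 495.2 normalized counts in wild type and 731.0, 915.7, 717.2 and 632.9 in heterozygote-labelled libraries. All but library 8 lay above every wild-type library, and library 8 lay just under wild-type library 1. The means were 557.9 ± 67.18 and 749.2 ± 119.2 (SD, n = 4 each), 34.3% higher. The log2 fold change was 0.42 (SE 0.14) and a 95% interval from 0.12 to 0.72. Its unadjusted limma-trend p was 0.0106 and the adjusted p 0.266, so it did not pass, and a two-sided exact permutation test gave 0.0571. The log2 fold change of Naglu stayed between 0.32 and 0.50 over 13 alternative settings, and its limma-trend adjusted p between 0.163 and 0.59.

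The other 7 glycosidase genes had log2 fold changes from -0.10 to 0.08, and their median together with Naglu was -0.07. Galc, which degrades galactosylceramide of myelin, had 908.4 to 1136.6 normalized counts in wild type and 925.4 to 1094.9 in heterozygote-labelled libraries, with an interval of the log2 fold change from -0.30 to 0.17. Hexa, for the alpha subunit of beta-hexosaminidase A, had a log2 fold change of -0.10 and Glb1, for the lysosomal beta-galactosidase, 0.08. Gaa (acid alpha-glucosidase, which degrades glycogen), Gusb (beta-glucuronidase), Neu1 (sialidase) and Man2b1 (alpha-mannosidase) had values between -0.10 and -0.05.

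The sulfatases and lipid hydrolases gave no unadjusted p under 0.05. Sgsh acts in the same heparan sulfate pathway as Naglu, and its log2 fold change was -0.23 (SE 0.18). Its values ran from 379.3 to 469.8 in wild type and from 288.8 to 512.8 in heterozygote-labelled libraries, where library 6 was above and libraries 5 and 8 were below the wild-type range. Arsb, which desulfates dermatan sulfate, had -0.16 and Arsa -0.09. Asah1, for acid ceramidase, had 1308.2, 1319.3, 1155.0 and 1097.9 normalized counts in wild type against 1027.6, 1400.2, 1328.8 and 1202.9. The libraries of the 2 genotypes were intermixed, and the log2 fold change was 0.02 with an interval from -0.24 to 0.27. Lipa (lysosomal acid lipase) and Ppt1 (palmitoyl-protein thioesterase) had log2 fold changes of 0.04 and -0.04.

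Of the soluble activators and carriers, Npc2 was the one with an unadjusted p under 0.05. It encodes a small cholesterol-binding protein of the lysosomal lumen that hands cholesterol to the membrane protein NPC1, and it lies at chr12:84754562-84773152 on the minus strand. Values were 4673.3, 4075.3, 3057.0 and 4536.7 normalized counts in wild type and 3063.1, 3466.0, 3424.6 and 2783.7 in heterozygote-labelled libraries. Wild-type library 3 lay within the range of the other genotype, and the other 3 wild-type libraries lay above it. The means were 4086 ± 731.9 and 3184 ± 322.6 (SD, n = 4 each), 22.1% lower in heterozygote-labelled libraries by their ratio. The log2 fold change was -0.35 (SE 0.13) and an interval from -0.64 to -0.05. The unadjusted limma-trend p was 0.0245, the adjusted p 0.305 and the two-sided exact permutation p 0.114. Without the 2 libraries low in Xist its log2 fold change was -0.26, with an unadjusted limma-trend p of 0.108.

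Psap had 41693.3, 43897.9, 42356.3 and 47856.9 normalized counts in wild type and 43147.7, 42796.4, 38872.4 and 37108.8 in heterozygote-labelled libraries. Libraries 7 and 8 lay under every wild-type library while libraries 5 and 6 lay within their range. The log2 fold change was -0.12 with an interval from -0.38 to 0.14. Grn, for progranulin, a secreted and lysosomal glycoprotein, had 2233.5, 1758.5, 1611.4 and 1949.5 in wild type against 1774.9, 1990.9, 2003.5 and 1652.1. Its groups overlapped almost wholly, with a log2 fold change of -0.02 and an interval from -0.27 to 0.23. Gm2a, for the activator of GM2 ganglioside breakdown, had a log2 fold change of 0.02.

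Among the membrane proteins, Lamp1 was the gene whose genotypes did not overlap. It encodes a major glycoprotein of the lysosomal membrane and lies at chr8:13159161-13175338 on the plus strand. Wild-type libraries had 13815.0, 12877.4, 12406.0 and 12769.2 normalized counts and those labelled heterozygote 11311.9, 12234.1, 11449.5 and 10963.3. The closest pair was wild-type library 3 and library 6, and every library labelled heterozygote lay below every wild-type one. Means were 12967 ± 600.3 and 11490 ± 536.8 (SD, n = 4 each). The difference was -0.17 on the log2 scale (SE 0.09). An exact permutation test (two-sided) gave p = 0.0286, which 4 against 4 libraries cannot go below. Every gene without overlap gets this p, so it adds nothing to the lack of overlap. The limma-trend adjusted p was 0.386. Lamp2, its close relative and the receptor of chaperone-mediated autophagy, had 4191.8, 4342.6, 4159.6 and 3779.4 against 3828.9, 4252.8, 4215.2 and 3983.0. The genotypes overlapped, and its log2 fold change was -0.02 with an interval from -0.20 to 0.17.

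Npc1, the membrane partner of Npc2, ran the other way with a log2 fold change of 0.22 and a standard error of 0.16 (limma-trend adjusted p 0.523). Its values ran from 1074.9 to 1956.8 in wild type and from 1758.5 to 1971.0 in heterozygote-labelled libraries. Wild-type library 1 stood far below the other 7, and without it the log2 fold change of Npc1 was 0.04. Cd63, a tetraspanin of late endosomes, had a log2 fold change of -0.29 and -0.13 without wild-type library 1, where it was highest at 5549.4. Scarb2, which carries glucocerebrosidase to the lysosome, Mcoln1, a calcium channel of the lysosomal membrane, and Cln3 had values of 0.08, 0.04 and -0.13.

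**Figure D3:**
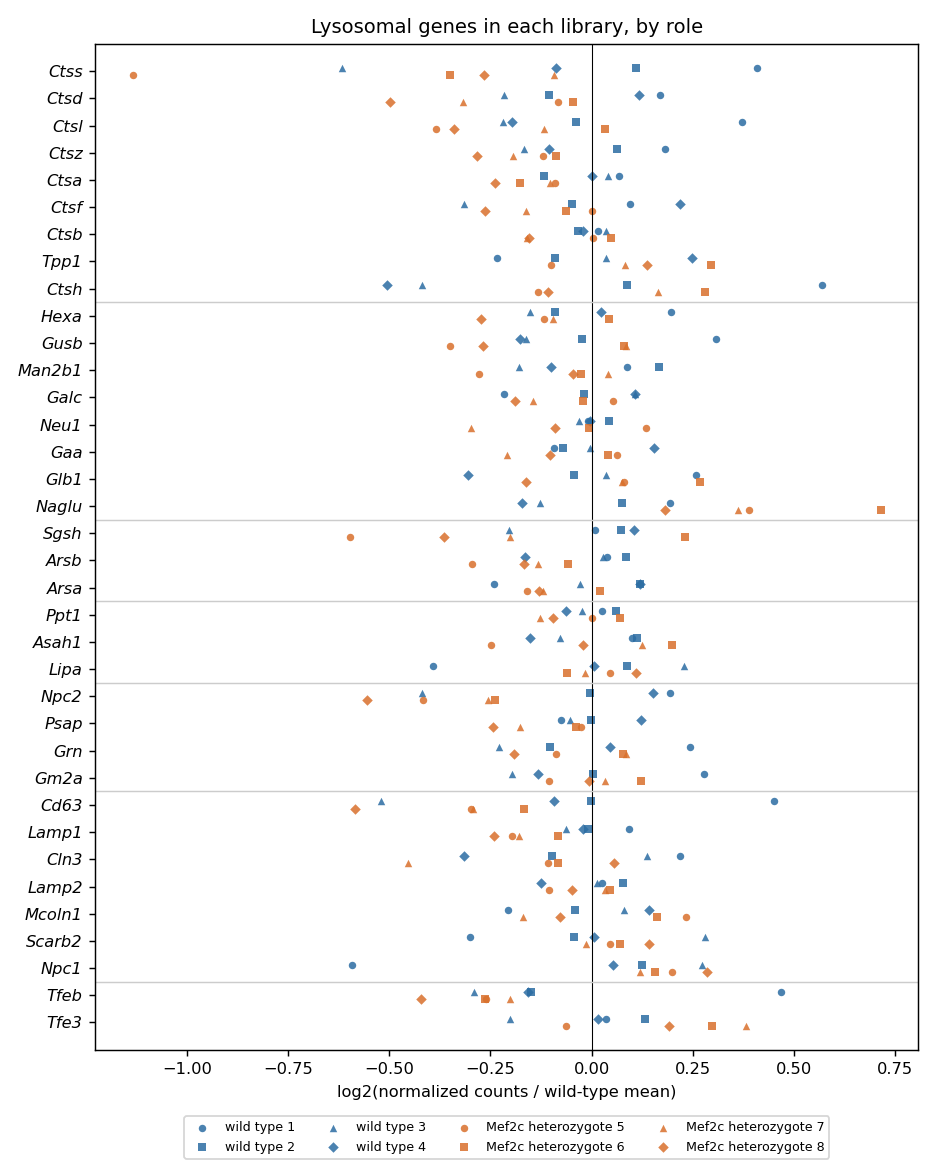
log2 of each library's normalized counts over the wild-type mean, for each lysosomal gene, with rows grouped by role. Blue symbols are the 4 wild-type libraries and orange symbols the 4 libraries labelled heterozygote, 1 shape per library. Naglu lies mostly to the right, Lamp1 shows no overlap, and wild-type library 1 (blue circles) stands apart in Ctsh, Cd63, Npc1 and Tfeb.

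The 2 transcription factors differed in direction, and neither passed the test. Tfeb had 1017.5, 663.2, 601.3 and 659.5 normalized counts in wild type and 613.7, 612.5, 639.9 and 549.4 in heterozygote-labelled libraries. Wild-type library 1 was far above the other 7, which lay close together. The log2 fold change was -0.25 (SE 0.16, limma-trend adjusted p 0.469), and without wild-type library 1 it was -0.09. Tfe3 had 574.9, 614.3, 487.6 and 567.7 in wild type against 536.6, 689.2, 731.3 and 640.4. Libraries 6, 7 and 8 were above every wild-type library and library 5 was within their range. Its log2 fold change was 0.21 (SE 0.13, limma-trend adjusted p 0.478). Without the 2 libraries low in Xist it was 0.31, with an unadjusted limma-trend p of 0.0372. Tfe3 lies on the X chromosome. So does Lamp2, whose log2 fold change went from -0.02 to 0.02 without those libraries. A link of these values to sex was not tested.

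The coefficient of variation was larger in wild type than in the other genotype in 24 of 36 genes (66.7%), against 70.6% of all tested genes, with medians of 11.7% in wild type and 9.06% in heterozygote-labelled libraries. Without wild-type library 1 it was larger in 17 of the 36 (47.2%), against 55.5% of all tested genes. In wild type it ran from 2.13% for Neu1 to 36.0% for Ctsh, followed by Ctss (28.2%), Cd63 (27.7%), Tfeb (25.9%) and Npc1 (23.5%). Wild-type library 1 was the highest of all 8 libraries in 15 genes and the lowest in 7. Library 8 was the lowest in 9 genes and the highest in 1. The median deviation of the 36 genes from their mean over libraries was 0.13 on the log2 scale in wild-type library 1 and -0.10 in library 8, whereas that of all tested genes lay between 0 and 0.01 in every library.

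Other genes of the lysosomal system were taken from 6 lists with 102 names, of which 101 were tested. With limma-trend 0 of the 101 had an adjusted p under 0.05, and 11 (10.9%) had an unadjusted p under 0.05, 3 higher and 8 lower, against 14.1% of all tested genes. In 6 (5.94%) the genotypes did not overlap, against 7.26% of all tested genes. These were Hyal1, Lgmn, Rragd, Mitf, Gabarapl2 and Map1lc3b. Among 23 further hydrolases, Hyal1, for a hyaluronidase, was higher, with 251.3 to 320.6 normalized counts in wild type and 348.5 to 511.7 in heterozygote-labelled libraries. The genotypes did not overlap, and its log2 fold change was 0.53 (SE 0.16, limma-trend adjusted p 0.259). Lgmn, for the asparaginyl endopeptidase legumain that cleaves pro-cathepsins, was lower without overlap, with 3293.9 to 4188.0 against 2946.0 to 3224.9 and a log2 fold change of -0.26 (limma-trend adjusted p 0.278). Ctso, for a cysteine cathepsin, had a log2 fold change of -0.36. Of 16 further membrane proteins, Tmem63a had an unadjusted p under 0.05, with a log2 fold change of -0.42, and among those higher Ctns, for the cystine exporter, had the smallest p (0.146), with a log2 fold change of 0.22.

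Genes of acidification, sorting and nutrient sensing showed few differences. Of 18 subunits of the V-ATPase, the proton pump of the lysosome, 13 were lower and 5 higher, with a median of -0.09. Atp6v0b and Atp6v1e1 had an unadjusted p under 0.05, with log2 fold changes of -0.34 and -0.30 and limma-trend adjusted p of 0.268 and 0.278, and Atp6v1a had 0.20. Of 12 sorting receptors and tagging enzymes, Igf2r, the large mannose 6-phosphate receptor, had 0.28, and M6pr, the small one, had -0.15. Of 14 tested TFEB relatives and regulators, Rragd, a small GTPase that presents TFEB and TFE3 to mTORC1, had no overlap, with 234.9 to 443.2 normalized counts in wild type against 470.3 to 825.1. Its log2 fold change was 0.67 (SE 0.23, limma-trend adjusted p 0.268). Mitf, a relative of Tfeb, also had no overlap (0.24), and Lamtor4, of the lysosomal Ragulator complex, had -0.53 (limma-trend adjusted p 0.266). Tfec was not analysed here. Of 18 autophagy genes, Gabarapl2, for an autophagosome protein of the ATG8 family, had 2674.7 to 3458.6 in wild type and 2048.7 to 2588.5 in heterozygote-labelled libraries. Its log2 fold change was -0.49 (SE 0.11, limma-trend adjusted p 0.163). Ulk1, the kinase that starts autophagy, had 0.18. Ctso, Atp6v1e1, Mitf and Map1lc3b were chosen for naming after their values were seen.

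**Figure D4:**
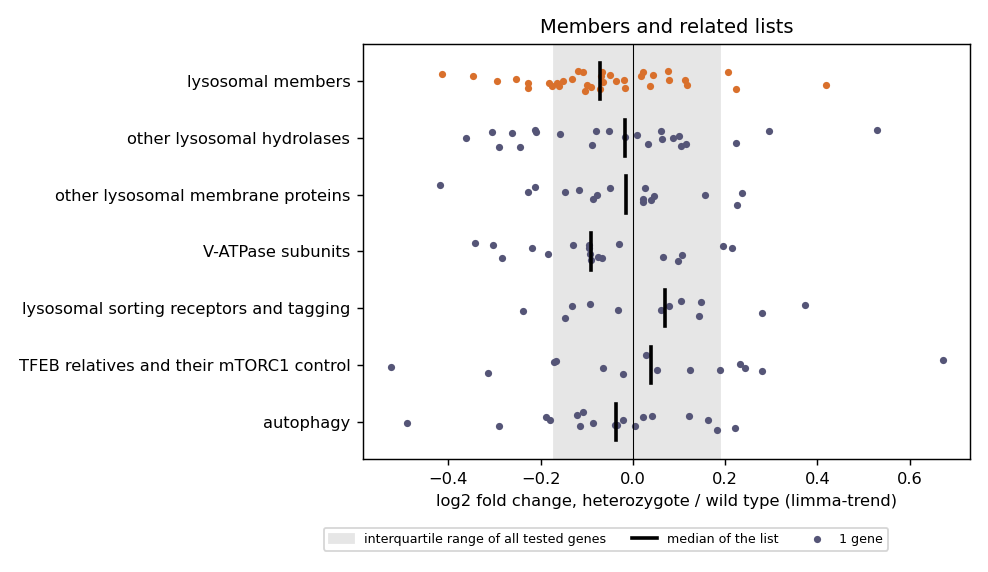
log2 fold change of each lysosomal member (orange) and of the genes of 6 related lists (grey-blue), 1 point per gene, with the median of each list as a bar and the interquartile range of all tested genes in grey. List medians lie between -0.09 and 0.07, and Rragd (0.67) and Hyal1 (0.53) are the points farthest to the right.

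Fold changes went with transcript length across the table, which bears on these genes. Across 14517 tested genes with a length, fold change and length had a rank correlation of 0.46. In 10 bins by length the median went from -0.27 in the shortest (median 980 bases) to 0.23 in the longest. Genes are not independent replicates, and this describes the libraries. The 36 members have transcripts of 1109 to 6168 bases, with a median of 2871 against 3162 for all, and their rank correlation was 0.20. After a correction of each library for length, 26 of the 36 were below 0, with a median of -0.08. Naglu had 0.43 and Npc2 -0.38, whereas Cd63, with the shortest transcript, went from -0.29 to -0.10. With this correction Ctsa (-0.20) and Arsb (-0.23) joined Npc2 among the genes lower at an unadjusted limma-trend p under 0.05. These corrected values rest on the longest coding transcript of each gene, 3299 bases for Npc2 and 3646 for Ctsa. Shorter transcripts of the same genes were not tried. In the V-ATPase subunits the rank correlation with length was 0.67 over 18 genes, and the correction moved their median from -0.09 to -0.01 and that of the sorting genes from 0.07 to -0.09. Igf2r, with a transcript of 8887 bases, went from 0.28 to 0.04. Atp6v0b and Atp6v1e1 went to -0.13 and -0.14, Atp6v1a to 0.11, Lamtor4 to -0.29, Mitf to 0.13 and Ulk1 to 0.06. After the correction Hyal1 had 0.51, Rragd 0.55 and Gabarapl2 -0.38.

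**Figure D5:**
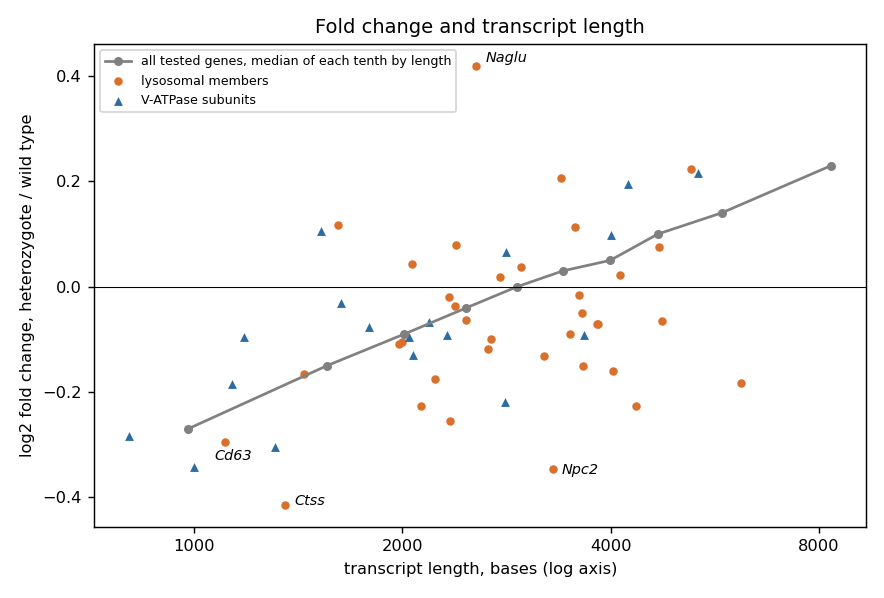
log2 fold change against transcript length (log axis) for the lysosomal members (orange circles) and V-ATPase subunits (blue triangles). The grey line joins the medians of all tested genes in 10 bins by length, from -0.27 to 0.23. With the longest coding transcript of each gene as its length, Naglu lies above and Npc2 below that line.

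In the authors' deposited table, 0 of the 36 genes had an FDR under 0.05, where 1.61% of the genes with a p-value did. The smallest FDR in the authors' deposited table was 0.131, for Naglu, with a ratio of 1.34. At an unadjusted p under 0.05 the authors' deposited table held 3 of the 36 (Naglu, Npc2 and Lamp1), against 15.3% of all genes. For Gabarapl2 the FDR in the authors' deposited table was 0.0122, the only one under 0.05 among the 101 related genes.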

How the data were processed

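Gene values are a signal given by the authors: as judged from the deposited values, counts of reads scaled by 1 factor in each library, to 1 decimal. Tools named without role in the submitters' processing notes are STAR, Partek and DESeq2, with build mm10 (GRCm38). The counting method and its use of strand are not given in the sources used here, so overlapping or antisense genes may share reads. The deposited columns also hold the authors' p-value and FDR, ratio and log2 ratio, and a signed fold change (a score, not used). Per the labels' protocols, libraries were poly(A)-selected and directional, from 50 ng of RNA with an integrity number of at least 7.

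The step of 1 read lay between 0.789 and 1.30 normalized counts. With a tolerance of 0.06, 88.2% to 91.7% of values under 300 were whole multiples, against 9.25% to 15.2% by chance, too few for a count model, so depth is an estimate. Genes reaching 10 normalized counts in 4 or more libraries were tested on log2(value + 1) with limma-trend (R 4.3.3, limma 3.58.1) and Benjamini-Hochberg adjustment, with a threshold of 0.05. A fold change is on that scale. The design foresaw this test if the values were not whole counts. Single values used a two-sided exact permutation test. The fit was tested on simulated data.

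Transcript length is that of the longest coding GENCODE M21 transcript, matched by symbol for 97.6% of tested genes, and the length correction is a loess fit with span 0.5 per library. Alternatives were a pseudocount of 10, no filter, quantile normalization, the length correction, omission of the 2 low-Xist libraries, and each library left out. Values in every library were given for members with an unadjusted p under 0.05, without overlap, among the 3 highest per length or the 3 smallest changes, and for Tfeb and Tfe3. In the related lists the smallest p in each direction, or genes past the threshold, were named, and marker lists are given mainly by their sums. The members and lists were chosen with earlier results of these data known. Python 3.11.15 with pandas 2.3.3, scipy 1.17.1 and matplotlib 3.10.9 was used.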

Additional observations from a re-analysis of the deposited data

Results flagged for a closer look

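Of 72 groups of 4 libraries (36 genes in 2 genotypes), 1 held a library far from the other 3, and chance flags about 1 group in 20, or 3.6. It was Tfeb in wild type, where the gap of library 1 to its nearest neighbour was 0.851 of the whole range, with 1017.5 normalized counts against 601.3 to 663.2.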

How the results depend on the processing

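No paired analysis was possible because the replicate numbers 1 to 8 are not shared between the genotypes. Of 10 members named with all their values, 6 kept their direction and their side of the threshold in all 13 alternatives. Npc2 kept its direction and passed without wild-type library 3. The other 3 were those nearest to 0: Lamp2 was 0.02 without the 2 libraries low in Xist, Grn was 0.08 there and 0.02 with the length correction, and with a single library left out at a time Lamp2 ran from -0.06 to 0.01, Asah1 from -0.04 to 0.10 and Grn from -0.09 to 0.07. The cause was not tested. Of all 36 members, 22 kept their sign in the 13 alternatives and 14 did not in at least 1.

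The number of members with an adjusted p under 0.05 was 0 to 1 with a library left out, and 0 in every other alternative. Members higher at an unadjusted p under 0.05 numbered 1 to 2 in the same fits, and 3 (Ctsh, Naglu and Tfe3) without the libraries low in Xist. Those lower numbered 0 to 5, with 0 without the libraries low in Xist and 3 with the length correction. With a library left out the median over members ran from -0.096 to -0.049. Over the whole table, limma-trend called 12 genes at an adjusted p under 0.05, 30 with the length correction, 7 with quantile normalization and 0 to 221 with a library left out (221 when it was wild-type library 3, 0 when it was library 2, 4 or 8).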
